A study of Mus musculus with 16 samples.

Results

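The aortic valve and the ascending aorta of Eln+/+ mice were compared gene by gene. Of the 16 arrays of the study, 8 belong to this comparison: 4 of aortic valve and 4 of aorta, chosen by tissue and genotype as the labels give them. All mice were 30 days old and untreated. The mice of these groups carried both normal alleles of Eln, the elastin gene. The other 8 arrays are the same tissues of heterozygous Eln+/- mice of that age. They are used to set the tissue difference of Eln+/+ mice beside theirs. They also enter the estimate of spread behind every fitted SE, interval and p, and the choice of probe set. A valve specimen held the cusps together with the annulus and the root, so it is a piece of tissue of mixed composition and not a cusp alone. Each array stands for 1 specimen whose RNA was amplified from a small amount before labelling, with no pooling, and the labels give no sex and no link between a valve and an aorta.

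The aortic valve opens and closes at the exit of the left ventricle. Its cusps are built of interstitial cells in a layered matrix of collagen, proteoglycan and elastic fibres under an endothelium, they arise from the endocardial cushions of the embryonic heart, and they are hinged on a fibrous annulus that borders heart muscle. The ascending aorta is an elastic artery whose wall is made mainly of smooth muscle cells between sheets of elastin. The heart muscle of the atria and that of the ventricles use partly different contractile proteins, channels and secreted hormones, and cartilage-type matrix genes are known to be used in valve and tendon attachment tissue as well as in cartilage.

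Values are log2 of a deposited ratio. That the ratio was taken to the median of each probe set over all 16 arrays is read from the values: 39827 of 45101 probe sets have a median ratio of 1, so 0 is the median of most probe sets, and of the other 5274 it lies above the median. They hold no absolute level, so whether a marker is present or absent in a tissue cannot be judged from them, only on which arrays it is higher. A gene is called higher or lower where the adjusted p (limma, Benjamini-Hochberg over 45037 probe sets) is below 0.05, and for every gene the probe set that varied most (highest SD over the 16 arrays) was used, a choice that favours large differences. With 4 arrays against 4 there are 70 ways to assign the arrays, and an exact two-sided permutation test of a single gene cannot give a p below 0.0286. Nothing says that same-numbered specimens come from the same mouse. P-values measure the spread between specimens only, and those of limma draw that spread from all 16 arrays.

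The valve differed from the aorta mostly by genes that were higher. Of 45037 probe sets 382 (0.848%) were called higher in the valve and 44 (0.0977%) lower. These counts depended on the settings: they were 157 and 16 without valve replicate 1, 167 and 17 without valve replicate 4, 212 and 30 without aorta replicate 1, 222 and 24 without aorta replicate 3, and 253 and 42 without aorta replicate 4. They were 605 and 87 after quantile normalization, and 78 and 0 when a log2 difference above 0.5 was required (limma's treat). With only the 8 Eln+/+ arrays in the fit they were 344 and 45. By gene, 217 of 18193 (1.19%) were called higher and 23 (0.126%) lower, although over all genes 7775 had a positive and 10418 a negative difference, with a median of -0.05. All 4 valve arrays lay above all 4 aorta arrays in 763 genes (4.19%) and below them in 775 (4.26%), so the imbalance of the calls does not appear in the counts of separated genes. The counts of called members given for each group of genes stand against these shares of all genes. The lists were written with earlier results of these data known, so their shares can partly reflect how members were picked. Among the called genes, 214 of the 217 higher and all 23 lower had valve and aorta arrays that did not overlap. The called genes had 245 other probe sets, of which 214 had the same sign and 73 were called in the same direction. Of the 217 higher genes 113 exceeded a log2 difference of 2, and of the 23 lower genes 1 went below -2 (Mia). The 15 highest rises are led by heart muscle genes: all but Prg4 and Bmp5 are on the list of cardiac muscle genes.

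**Figure D1:**
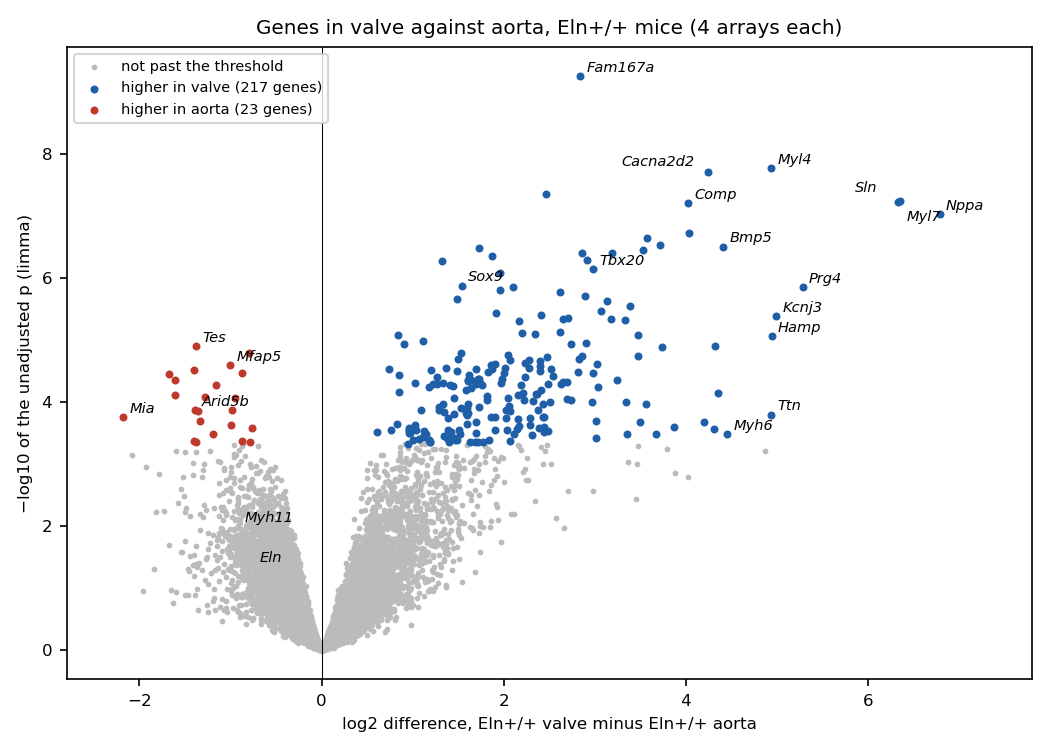
Each point is a gene; the horizontal axis is the log2 difference of Eln+/+ valve minus Eln+/+ aorta (4 arrays each) and the vertical axis is -log10 of the unadjusted p. The 217 genes called higher in the valve reach a difference of 6.79 (Nppa), and the 23 called lower reach -2.18 (Mia).

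Some specimens stood apart from the others of their tissue. Aorta replicate 2 had the highest mean of the 4 aortas over the cardiac muscle list, -0.53 against -1.55 to -1.47, and over the 4 measured erythroid genes, 1.65 against 0.14 to 0.28. Aorta replicates 1 and 4 had high means over the 22 adipocyte genes, 1.17 and 2.57, against -0.65 and -0.80 in replicates 2 and 3. Valve replicate 2 had the lowest cardiac mean of the 4 valves (0.23, the others 0.37 to 0.95). Xist lay above the Y-linked genes in 1 aorta (replicate 4) and 1 valve (replicate 2), so for replicate numbers 2 and 4 the aorta and the valve of the same number differed in that signal. Of the 117 called genes described, 50 kept the call whichever array was left out; 64 of the 117 lost it without valve replicate 1, 60 without valve replicate 4, 49 without aorta replicate 3, 45 without aorta replicate 1, 43 without aorta replicate 4, 31 without valve replicate 3, 21 without aorta replicate 2 and 18 without valve replicate 2. In tissue pieces such as these, fewer cells of a type and less RNA per cell cannot be told apart.

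Heart muscle genes, the longest of the lists, formed the largest group higher in the valve specimens. Of 116 listed names 105 were measured, 87 had a positive difference and 33 were called higher, against 1.19% of all genes; 0 were called lower. The median difference of the 105 was 1.36, beside -0.05 over all genes. Averaged over the list, the valve arrays stood at 0.57, 0.23, 0.37 and 0.95 and the aortas at -1.47, -0.53, -1.55 and -1.47, so the tissues did not overlap. Without aorta replicate 2, which was added as a setting after its values were seen, 43 of the 105 were called higher and the median was 1.53. The skeletal muscle list had 7 of 21 members higher, a median of -0.06 and 0 calls by limma in either direction (2 at an unadjusted p below 0.05). In Eln+/- mice 14 of the 21 were higher in the valve and 2 were called higher. The origin of the muscle signal was not tested.

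The largest differences belonged to genes of atrial muscle, the chambers that lie against the aortic root. Nppa, which encodes atrial natriuretic peptide, read -5.0, -4.66, -4.51 and -3.92 in aortas 1 to 4 and 1.37, 1.14, 2.95 and 3.59 in valves 1 to 4. Every valve was far above every aorta, and aorta replicate 2 was no exception. The log2 difference was 6.79 ± 0.73 (SE), or 110 times the aorta ratio, with an adjusted p of 0.000384.

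Sln encodes sarcolipin, a small inhibitor of the sarcoplasmic calcium pump in atria. It was at -4.40, -3.52, -4.27 and -4.02 in the aortas and 2.25, 0.84, 2.29 and 3.83 in the valves, a difference of 6.36 ± 0.66 (adjusted p = 0.000286). Myl7, the atrial regulatory light chain of myosin, was at -5.41, -4.27, -4.14 and -3.96 against 1.75, 1.01, 1.78 and 2.99, a difference of 6.33 ± 0.66 (adjusted p = 0.000286). Myl4, the atrial essential light chain, was at -3.55, -3.55, -2.78 and -3.06 against 1.66, 0.79, 1.65 and 2.72, a difference of 4.94 ± 0.47 (adjusted p = 0.000181). In all 3 the 4 aortas kept close together, and valve replicate 4 was the highest and valve replicate 2 the lowest of the valves. The other probe set of Sln differed by 0.64 and that of Myl4 by 0.34, and neither was called. Nppa, Sln, Myl7 and Myl4 were the called ones among 12 measured atrial genes, and each kept its call whichever array was left out. Of the 12, 8 had a positive and 4 a negative difference (lowest -0.58). Of the others, Tbx5, a T-box factor of the atria and forelimb, had a difference of 1.49 (adjusted p = 0.102), and Kcna5, an atrial potassium channel, 0.97 (adjusted p = 0.445).

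The subunits of the acetylcholine-gated potassium channel of atrial and pacemaker cells were called higher too. Kcnj3 was at -2.95, -1.06, -2.73 and -3.03 in the aortas and 2.47, 0.61, 2.79 and 4.32 in the valves. Its aortas were low except for replicate 2, and its valves spread widely without touching them. The difference was 4.99 ± 0.72 (adjusted p = 0.00348). Kcnj5, its partner subunit, differed by 4.04 ± 0.46 (adjusted p = 0.000651). They were the 2 called among 17 measured sodium, potassium and gap junction channel genes, of which 12 had a positive and 5 a negative difference (lowest -1.50). The 3 other probe sets of Kcnj3 differed by 0.17 to 3.63, and 1 was called higher. The other probe set of Kcnj5 differed by 1.05 and was not called. Kcne1, a potassium channel subunit, differed by 1.99 with an adjusted p of 0.0668.

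Promoter sequences of 4 of these genes are given. For the atrial genes Nppa and Myl7 aorta replicate 2 lay with the other aortas. Above them it lay for the heart muscle genes Myh6 and Tnni3, which are not in the atrial part of the list. They are RefSeq promoters of GRCm38.p6, from 250 bases before to 50 after the gene start, 5′ to 3′, with motif matches in capitals.
Nppa promoter, chr4:148000472-148000771, plus strand: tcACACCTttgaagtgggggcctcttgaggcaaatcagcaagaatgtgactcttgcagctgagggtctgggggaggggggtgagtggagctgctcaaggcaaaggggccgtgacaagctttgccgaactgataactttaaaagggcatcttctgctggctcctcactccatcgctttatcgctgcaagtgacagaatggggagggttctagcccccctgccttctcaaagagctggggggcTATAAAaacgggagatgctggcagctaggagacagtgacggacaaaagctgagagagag
Myl7 promoter, chr11:5898733-5899032, minus strand: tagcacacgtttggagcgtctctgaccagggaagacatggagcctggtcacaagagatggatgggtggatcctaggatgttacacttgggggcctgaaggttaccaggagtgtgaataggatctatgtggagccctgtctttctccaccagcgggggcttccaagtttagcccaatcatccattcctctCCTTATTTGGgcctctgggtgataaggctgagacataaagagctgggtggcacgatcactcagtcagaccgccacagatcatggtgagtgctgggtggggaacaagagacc
Myh6 promoter, chr14:54966558-54966857, minus strand: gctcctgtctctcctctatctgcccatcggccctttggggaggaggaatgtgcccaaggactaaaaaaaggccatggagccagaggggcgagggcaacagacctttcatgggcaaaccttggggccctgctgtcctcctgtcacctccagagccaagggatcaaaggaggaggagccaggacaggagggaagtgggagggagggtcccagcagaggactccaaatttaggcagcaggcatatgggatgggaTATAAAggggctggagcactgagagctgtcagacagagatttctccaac
Tnni3 promoter, chr7:4522479-4522778, minus strand: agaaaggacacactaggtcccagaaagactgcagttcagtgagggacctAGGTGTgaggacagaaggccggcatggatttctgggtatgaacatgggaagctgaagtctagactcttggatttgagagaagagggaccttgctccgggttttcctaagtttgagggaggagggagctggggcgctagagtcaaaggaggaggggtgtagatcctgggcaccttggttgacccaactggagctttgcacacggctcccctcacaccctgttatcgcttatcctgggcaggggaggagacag
The motifs searched on both strands were AGATAA for GATA factors, AGGTGT for T-box factors and TATAAA for the TATA box, with the MEF2 and CArG elements; MEF2 and TATA matches can share bases. Capitals mark a T-box match on the minus strand and a TATA match in Nppa, a CArG match in Myl7, a TATA match in Myh6 and a T-box match in Tnni3. A promoter was held for 14452 of 18193 measured genes and for 28 of the 33 cardiac genes called higher. A GATA match was in 7 of those 28 (25.0%) and in 9.54% of measured genes, a MEF2 match in 5 (17.9%) and 2.51%, a T-box match in 5 (17.9%) and 14.6%, a TATA match in 4 (14.3%) and 11.5%, and a CArG match in 2 (7.14%) and 1.58%. In the 126 other genes called higher with a promoter, the shares were 12.7% (GATA), 4.76% (MEF2), 12.7% (T-box), 16.7% (TATA) and 4.76% (CArG). A gene was counted where any of its listed promoters matched. These are descriptions of the letters in a short window and no test was made.

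Genes of the contractile apparatus outside the atrial part of the list were higher in the valves as well, but with an intermediate value in aorta replicate 2. Myh6, the alpha myosin heavy chain of heart muscle, was at -4.18, -0.65, -4.91 and -5.0 in the aortas and 0.96, 0.45, 0.68 and 1.00 in the valves. The aortas other than replicate 2 were low, and replicate 2 approached the valves without reaching them. The difference was 4.45 ± 0.97 (adjusted p = 0.0399) with all arrays and 5.47 (adjusted p = 0.00424) without aorta replicate 2.

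Ttn encodes titin, the molecular spring of the sarcomere, and was at -4.08, -0.79, -5.78 and -5.26 against 1.02, 0.51, 1.02 and 1.27, a difference of 4.93 ± 1.00 (adjusted p = 0.0255). Its 5 other probe sets had the same sign. Mybpc3, cardiac myosin-binding protein C, differed by 3.34 ± 0.64 (adjusted p = 0.0197) and Smpx, a small striated muscle protein, by 4.2 ± 0.87 (adjusted p = 0.0303). These 4 were called among 7 measured thick filament and titin genes. Myom2, an M-band protein, differed by 4.87 and missed the threshold (adjusted p = 0.0572); its aorta replicate 3 stood at -6.64, the lowest ratio in the table, and without aorta replicate 2 its adjusted p was 0.0104. Of its 3 other probe sets 2 had the same sign, 1 of them called higher, and 1 had the opposite sign. The beta myosin heavy chain, Myh7, was the gene called among 10 measured ventricular chamber genes, at -1.30, -0.66, -1.51 and -1.46 against 2.11, 1.05, 0.08 and 2.34 (difference 2.63 ± 0.48, adjusted p = 0.0131); without aorta replicate 2 there were 2.

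The ventricular light chains also had a high value in aorta replicate 2. Myl2, the ventricular regulatory light chain, was at -3.21, -0.08, -2.84 and -3.10 in the aortas and 0.37, 0.29, 0.08 and 0.33 in the valves. Aorta replicate 2 lay just below the lowest valve while the other 3 aortas lay far below. The difference of 2.57 ± 0.84 missed the threshold (adjusted p = 0.211), and it was 3.31 (adjusted p = 0.0690) without that array. Myl3, the ventricular essential light chain, differed by 3.45 (adjusted p = 0.154), and by 4.45 (adjusted p = 0.0273) without it. Its 2 other probe sets had the same sign, and 1 was called higher with all arrays. Over the 10 measured ventricular chamber genes, aorta replicate 2 had the highest aorta value in 7; over the 12 atrial genes it did so in 4, with a median of -0.08 relative to the mean of the other 3 aortas.

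All 10 measured thin filament genes had separate arrays and a positive difference, and 4 were called higher, where 4.19% of all genes had all valves above all aortas and 1.19% were called higher. Nebl, a cardiac relative of nebulin, differed by 3.38 ± 0.48 (adjusted p = 0.00262) and Lmod2, an actin filament nucleator, by 4.31 ± 0.92 (adjusted p = 0.0371). Tnnt2 and Tnni3, the cardiac troponins T and I, differed by 2.51 ± 0.49 (adjusted p = 0.0200) and 3.67 ± 0.80 (adjusted p = 0.0398). Tnni3 was at -4.11, -0.22, -3.53 and -4.54 in the aortas against 0.57, 0.19, 0.47 and 1.07. Actc1, cardiac actin, and Tnnc1, troponin C, differed by 3.36 and 3.88 and missed the threshold with all arrays (adjusted p = 0.0721 and 0.0916), but not without aorta replicate 2 (0.00873 and 0.0163).

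Among 12 measured Z disc genes 4 were called. Ankrd1, a stretch-responsive ankyrin repeat protein, was at -3.27, -2.25, -4.48 and -3.20 against 1.57, 0.71, 0.17 and 1.61 (difference 4.32 ± 0.69, adjusted p = 0.00647). Csrp3, muscle LIM protein, differed by 3.56 ± 0.69 (adjusted p = 0.0204), Actn2, the sarcomeric alpha-actinin, by 2.48 ± 0.45 (adjusted p = 0.0131) and Myoz2, a calcineurin-binding Z disc protein, by 2.37 ± 0.44 (adjusted p = 0.0164). Tcap, which anchors titin, differed by 2.19 and missed the threshold (adjusted p = 0.0561); without aorta replicate 2 its adjusted p was 0.0357 and 7 of the 12 were called.

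Calcium handling gave the most calls by number, 8 of 17 measured genes. Of the 17, 13 had a positive and 4 a negative difference (lowest -0.65). The release complex was higher throughout: Ryr2, the release channel, by 2.38 ± 0.51, Casq2, the calcium buffer calsequestrin, by 3.14 ± 0.43, Trdn, which ties them together, by 4.36 ± 0.82, and Hrc, a luminal calcium-binding protein, by 2.32 ± 0.45. The pump Atp2a2 differed by 2.01 ± 0.34 and its inhibitor Pln by 3.36 ± 0.73, and Srl, sarcalumenin, by 2.74 ± 0.53. Adjusted p-values for these 7 lay between 0.00234 (Casq2) and 0.0396 (Pln). Of the 5 other probe sets of Atp2a2 3 had the same sign. Cacna2d2, an auxiliary subunit of voltage-gated calcium channels, followed the pattern of Nppa, with aorta replicate 2 among the others. It was at -2.53, -2.51, -3.74 and -2.07 in the aortas against 2.02, 1.01, 0.82 and 2.29 in the valves (difference 4.25 ± 0.41, adjusted p = 0.000181). Its 2 other probe sets differed by 0.01 and 0.92, and neither was called.

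Genes of muscle energy and oxygen supply were all positive, 11 of 11, and 3 were called. Pgam2, the muscle phosphoglycerate mutase, differed by 3.48 ± 0.53 (adjusted p = 0.00510), Eno3, the muscle enolase, by 2.35 ± 0.44 (adjusted p = 0.0164) and Cox6a2, the muscle form of a cytochrome oxidase subunit, by 2.48 ± 0.54 (adjusted p = 0.0380). Ckmt2, mitochondrial creatine kinase of muscle, was at -4.76, -0.45, -4.44 and -4.67 in the aortas and 0.42, 0.34, 0.42 and 0.57 in the valves. Replicate 2 stood alone among the aortas, and the difference of 4.02 was not called (adjusted p = 0.0982) except without that array (5.06, adjusted p = 0.0159). Mb, myoglobin, and Ckm, muscle creatine kinase, likewise had adjusted p-values of 0.0750 and 0.0800 with all arrays and 0.00811 and 0.00970 without it, and the other probe set of each had the opposite sign.

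Of 9 measured secreted and surface genes, Hamp, Corin and Gpr22 were called. Hamp, which encodes the iron hormone hepcidin, was at -2.39, -2.8, -2.45 and -3.23 against 2.11, 0.54, 2.07 and 4.18, a difference of 4.94 ± 0.76 (adjusted p = 0.00522). Corin, the cell surface protease that activates atrial natriuretic peptide, differed by 2.74 ± 0.43 (adjusted p = 0.00620). Gpr22, an orphan receptor of heart and brain, differed by 0.95 ± 0.22 (adjusted p = 0.0498). Nppb, the brain natriuretic peptide, overlapped between tissues, with a difference of 0.80 (adjusted p = 0.389).

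Among the cardiac genes described, the calls of Nppa, Sln, Myl7, Myl4, Kcnj3, Kcnj5, Hamp, Cacna2d2, Nebl, Ankrd1, Casq2, Atp2a2, Pgam2 and Corin held without any 1 array. The other 19 lost theirs without at least 1. Gpr22 lost it without each of the 8 (adjusted p up to 0.169, without valve replicate 1), and Myh6, Tnni3, Lmod2, Pln and Cox6a2 without each array but aorta replicate 2 (adjusted p up to 0.137, Cox6a2 without valve replicate 4). Ttn, Smpx and Ryr2 lost it without aortas 1, 3 or 4 or valves 1, 3 or 4 (up to 0.129, Ryr2 without valve replicate 4), Mybpc3, Csrp3, Myoz2, Trdn, Srl and Eno3 without aortas 1, 3 or 4 or valves 1 or 4 (up to 0.0792, Csrp3 without valve replicate 4), Tnnt2 and Hrc without aortas 3 or 4 or valves 1 or 4 (up to 0.0822), Actn2 without aorta 1 or valves 1 or 4 (up to 0.0571) and Myh7 without valves 1 or 4 (up to 0.0587).

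**Figure D2:**
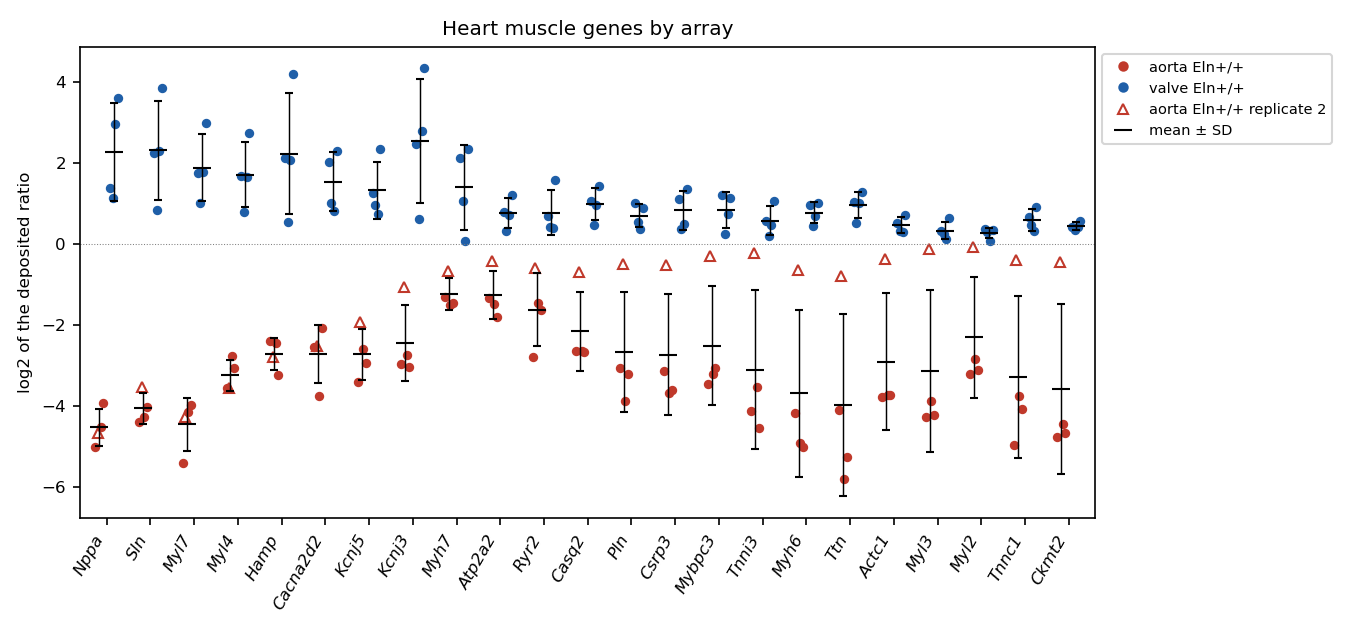
The vertical axis is the log2 of the deposited ratio; each point is 1 Eln+/+ array, the black bar is the mean ± SD of 4 arrays, and the open triangle is aorta replicate 2. In Nppa the triangle (-4.66) lies among the other aortas, while from Kcnj5 to Ckmt2 it is the highest aorta (Ckmt2 -0.45, the others at -4.44 or lower).

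Transcription factors of the heart and the endocardial cushions were partly higher in the valve. Of 47 measured, 34 had a positive difference, 6 were called higher and 1 lower, beside 1.19% and 0.126% of all genes; the median was 0.21. Tbx20, a T-box factor of cushion and heart muscle, was at -1.87, -1.56, -2.16 and -2.14 in the aortas and 1.45, 0.91, 0.78 and 1.04 in the valves. The groups were tight and far apart, aorta replicate 2 included, with a difference of 2.98 ± 0.38 (adjusted p = 0.00120), and its other 2 probe sets were called too.

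Meox1, a homeobox factor of somites and of fibroblast activation, was at -2.54, -1.48, -2.63 and -1.46 against 1.38, 0.60, 0.83 and 0.53 (difference 2.86 ± 0.34, adjusted p = 0.000868). Gata4, a zinc finger factor needed for cushion and heart formation, was at -0.65, -0.78, -1.64 and -1.89 against 1.23, 0.61, 0.45 and 0.96 (difference 2.05 ± 0.34, adjusted p = 0.00846). These 2 and Tbx20 kept the call whichever array was left out. Hopx, a homeodomain-only factor of heart muscle, differed by 3.01 ± 0.67 (adjusted p = 0.0444), with aorta replicate 2 at -0.03 and the other aortas at -3.63, -2.38 and -2.13.

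Tcf21, a marker of epicardium-derived fibroblasts, differed by 1.34 ± 0.26 (adjusted p = 0.0204) and Snai2, a factor of epithelial-to-mesenchymal transition, by 1.03 ± 0.22 (adjusted p = 0.0375). Osr2 was the factor called lower, at 0.53, 0.01, 1.17 and 0.32 in the aortas against -1.16, -0.70, -0.41 and -0.48 (difference -1.19 ± 0.26, adjusted p = 0.0397). Their calls did not hold throughout: Hopx reached an adjusted p of 0.157 and Tcf21 0.0813 without valve replicate 4, Snai2 0.135 without valve replicate 4, and Osr2 0.144 without valve replicate 1. Hopx lost its call without aortas 1, 3 or 4 or valves 1, 3 or 4, Tcf21 without aortas 1 or 4 or valves 1 or 4, Snai2 without aortas 2, 3 or 4 or valves 1, 3 or 4, and Osr2 without each array but aorta replicate 2.

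Other factors known from valve formation did not pass. Hand2 differed by 0.96 (adjusted p = 0.159), Zeb2 by 1.04 (0.161), Msx1 by 0.89 (0.175), Nkx2-5 by 0.59 (0.338) and Tbx18 by -0.84 (0.190). In Hand2, Zeb2, Msx1 and Nkx2-5 the valve arrays all lay above the aortas. The other probe set of Msx1 had the opposite sign.

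Of 40 measured cartilage-type matrix genes 27 had a positive difference, 9 were called higher and 1 lower, beside 1.19% and 0.126% of all genes, with a median of 0.45. Averaged over the list the valves stood at 0.35, 0.09, 0.06 and 0.59 and the aortas at -0.51, -0.46, -0.45 and -0.73. Aorta replicate 2 lay among the aortas, and without it 8 were called higher and 0 lower. The genes called encode lubricating, linking and fibril-coating proteins and a chondrogenic factor; the chief cartilage collagen and aggrecan were not among them.

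Prg4 encodes lubricin, the lubricant of joint surfaces, and was at -3.28, -3.56, -5.51 and -4.46 in the aortas and 1.46, 0.94, 0.71 and 1.23 in the valves. All aortas were far below all valves, with a difference of 5.28 ± 0.70 (adjusted p = 0.00171), the highest outside heart muscle genes. Comp, a pentameric glycoprotein of cartilage and tendon, was at -2.82, -3.08, -2.37 and -2.78 against 1.89, 0.89, 0.65 and 1.6 (difference 4.02 ± 0.42, adjusted p = 0.000286). Ucma, a small protein of the growth plate, was at -1.88, -1.59, -1.39 and -1.81 against 2.48, 0.84, 0.50 and 1.80 (difference 3.07 ± 0.44, adjusted p = 0.00307).

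Sox9, the transcription factor that drives cartilage matrix genes, was at -0.54, -0.91, -0.58 and -1.47 in the aortas and 0.65, 0.39, 0.73 and 0.90 in the valves. The groups did not overlap and the difference was 1.54 ± 0.20 (adjusted p = 0.00171). Trps1, a zinc finger repressor of chondrocytes, differed by 1.40 ± 0.31 (adjusted p = 0.0479). Of the collagens, Col9a3 differed by 2.27 ± 0.38 (adjusted p = 0.00921) and Col11a2 by 1.26 ± 0.22 (adjusted p = 0.0118).

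Hapln1, which links hyaluronan to proteoglycans and is known in endocardial cushions, was at -0.28, -0.05, -1.60 and -0.66 against 2.43, 2.08, 1.79 and 1.86 (difference 2.69 ± 0.48, adjusted p = 0.0128). Chad, a leucine-rich adhesion protein, differed by 2.07 ± 0.41 (adjusted p = 0.0233). The call of Hapln1 was lost without valve replicate 1 (adjusted p = 0.0551), that of Chad without aortas 1, 3 or 4 or valves 1 or 4 (up to 0.0914, valve replicate 1) and that of Trps1 without each array but valve replicate 3 (up to 0.167, valve replicate 4). Those of Prg4, Comp, Ucma, Sox9, Col9a3 and Col11a2 held without any 1 array.

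Mia went the other way and was the deepest fall of all genes called. It encodes a small secreted protein of cartilage and melanoma cells, and was at 0.34, 0.89, 2.17 and 0.18 in the aortas and -1.63, -0.21, -1.86 and -1.45 in the valves (difference -2.18 ± 0.45, adjusted p = 0.0270). It lost the call without aortas 2 or 3 or valves 1, 3 or 4 (up to 0.102, valve replicate 1).

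Col2a1, the main collagen of cartilage, was at 0.04, -0.10, -0.05 and -0.18 in the aortas and 1.28, 0.60, -0.04 and 2.99 in the valves. Valve replicate 4 was high and valve replicate 3 lay within the aortas, and the difference of 1.28 (95% interval -0.19 to 2.75) was not called (adjusted p = 0.494). Acan, aggrecan, differed by -0.08 (95% interval -1.20 to 1.04). Col9a1 just missed the threshold at 2.41 (adjusted p = 0.0528), and Epyc (1.89), Cilp (1.16) and Col11a1 (1.5) had adjusted p-values of 0.106, 0.184 and 0.261.

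The elastic fibre genes moved in both directions. Of 21 measured, 7 had a positive difference, 2 were called higher and 1 lower, beside 1.19% and 0.126% of all genes, with a median of -0.17. Fbn2, the fibrillin of developing microfibrils, was at -1.60, -1.80, -1.70 and -1.81 in the aortas and 1.5, 0.32, 0.83 and 0.89 in the valves, a difference of 2.61 ± 0.35 (adjusted p = 0.00188). Mfap5, a microfibril glycoprotein, was at 0.47, 0.49, 0.58 and 0.17 against -0.76, -0.54, -0.19 and -0.82, a difference of -1.0 ± 0.17 (adjusted p = 0.0101). Both kept the call without any 1 array. Fbln7, a fibulin, differed by 1.39 ± 0.30 (adjusted p = 0.0373) and lost the call without aortas 1, 2 or 4 or valves 1, 2 or 4 (up to 0.131, valve replicate 4).

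Eln itself was at 0.42, 0.48, 0.05 and 0.27 in the aortas and -0.62, -0.0028, 0.04 and -1.19 in the valves. Every valve lay below every aorta, by little for valve replicates 2 and 3, and the difference was -0.74 ± 0.34 (adjusted p = 0.405; exact two-sided permutation p = 0.0286). Lox, which crosslinks elastin and collagen, differed by -0.90 (adjusted p = 0.280), Ltbp1, a latent TGF-beta binding protein, by -1.04 (0.327) and Fbln5, needed for elastic fibre assembly, by -0.96 (0.438).

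Of 32 measured collagen and collagen-processing genes 3 were called higher and 0 lower, with a median of -0.12. The short-chain collagens of endothelial and subendothelial matrix were among them. Col8a1 was at -2.23, -1.36, -1.46 and -2.66 in the aortas and 1.26, 0.41, 0.56 and 1.69 in the valves (difference 2.91 ± 0.36, adjusted p = 0.000975), and Col8a2 was at -0.84, -1.35, -0.87 and -1.74 against 1.03, 0.90, 1.09 and 1.82 (difference 2.41 ± 0.35, adjusted p = 0.00342). Both kept the call without any 1 array. P4ha3, a prolyl hydroxylase subunit, differed by 1.27 ± 0.23 (adjusted p = 0.0131) and lost it without aorta 3 or valves 1 or 4 (up to 0.0559). The main fibrillar collagens Col1a1 and Col3a1 differed by -0.15 (95% interval -0.49 to 0.20) and -0.27 (-0.69 to 0.14), and the fibril-associated Col12a1 by 1.42 (adjusted p = 0.119).

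Among 33 proteoglycan genes 2 small leucine-rich members were called higher and 0 lower. Fmod, fibromodulin, which shapes collagen fibrils in tendon, was at -2.29, -0.94, -0.26 and -1.23 against 1.66, 0.85, 0.96 and 1.91 (difference 2.52 ± 0.43, adjusted p = 0.0108), and 4 of its 5 other probe sets were called higher. Lum, lumican, differed by 1.12 ± 0.24 (adjusted p = 0.0376) and lost the call without each array but valve replicate 2 (up to 0.133, valve replicate 1), while Fmod kept it. Versican, Vcan, the large proteoglycan of the cusp, had separate arrays with a difference of 1.19 and an adjusted p of 0.219. Of its 7 other probe sets 6 had the same sign, and 1 was called higher. Decorin, Dcn, overlapped (1.01, adjusted p = 0.273), and Tnfaip6, a hyaluronan-binding protein, differed by 1.25 (adjusted p = 0.0548).

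Of 21 matricellular genes Thbs1 and Thbs4 were called higher. Thbs1, thrombospondin, an activator of latent TGF-beta, was at -1.79, -0.57, -2.36 and -1.55 against 1.93, 1.36, 1.19 and 1.16 (difference 2.98 ± 0.52, adjusted p = 0.0108). Thbs4, a thrombospondin of tendon, was at -0.40, 0.02, -1.02 and -0.96 against 1.86, 0.95, -0.02 and 1.57, so that valve replicate 3 lay just below aorta replicate 2 (difference 1.68 ± 0.38, adjusted p = 0.0479; exact two-sided permutation p = 0.0571). Thbs1 lost its call without valve replicate 1 (0.0502) and Thbs4 without aortas 1, 3 or 4 or valves 1, 2 or 4 (up to 0.164, valve replicate 1). Periostin, Postn, a protein of valve interstitial cells, differed by -0.18 (95% interval -0.63 to 0.26).

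Among 31 matrix proteases and inhibitors, Mmp3, stromelysin, was called higher (1.69 ± 0.37, adjusted p = 0.0395), as was the inhibitor Timp1 (1.15 ± 0.25, adjusted p = 0.0398). Mmp17, a membrane-anchored protease, was called lower: 0.65, 0.84, 1.35 and 0.71 in the aortas against -0.77, 0.25, -0.61 and -0.82 (difference -1.38 ± 0.31, adjusted p = 0.0479). None of the 3 calls held throughout: Mmp3 lost it without each of the 8 arrays (up to 0.134, valve replicate 1), Timp1 without each but aorta 2 and valve 2 (up to 0.145, valve replicate 4) and Mmp17 without each but valve 2 (up to 0.161, valve replicate 4). The 19 basement membrane genes had a median of -0.12 and 0 calls by limma in either direction (6 at an unadjusted p below 0.05); Lamc3, a laminin chain, had the deepest difference at -1.06 (adjusted p = 0.275).

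**Figure D3:**
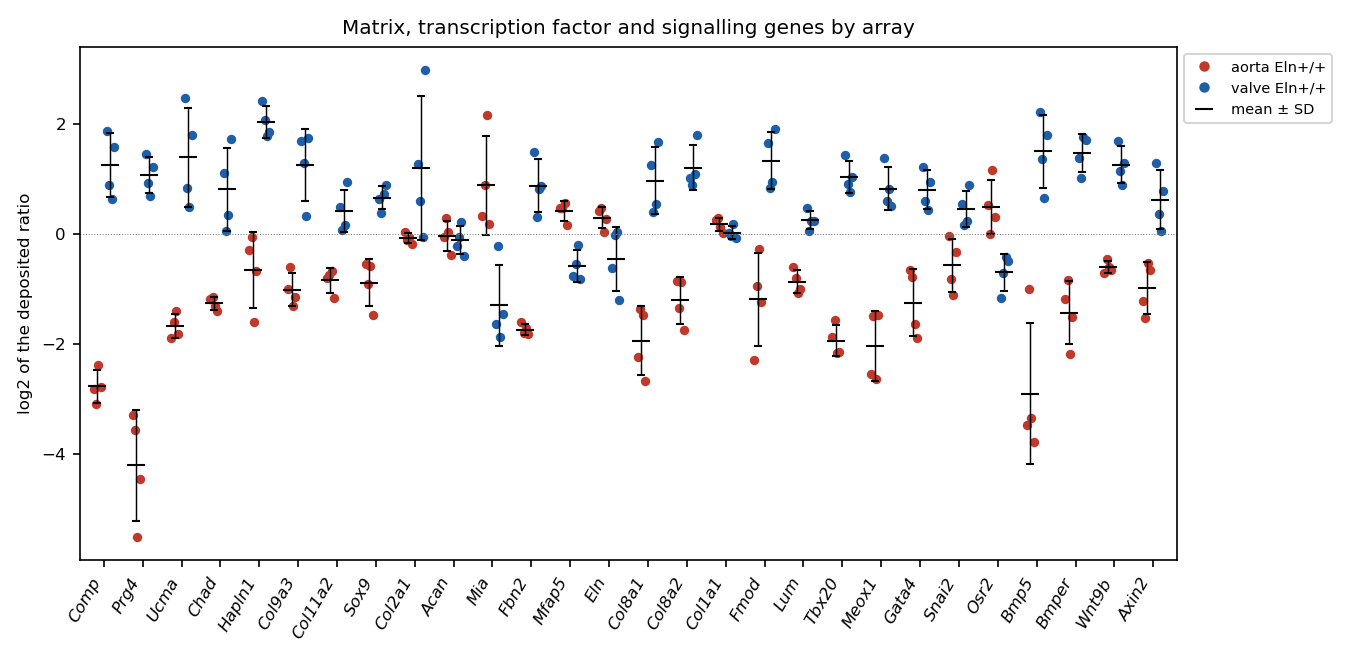
The vertical axis is the log2 of the deposited ratio; each point is 1 Eln+/+ array and the black bar is the mean ± SD of 4 arrays. Comp, Prg4, Ucma and Fbn2 show wide gaps between tissues, Mia, Mfap5 and Osr2 are higher in the aorta, and Acan and Col1a1 overlap.

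In the BMP list, 3 of 23 signalling genes were called higher and 1 lower, beside 1.19% and 0.126% of all genes. Bmp5, a ligand of the cushion and heart region, was at -3.47, -0.99, -3.35 and -3.78 in the aortas and 2.22, 1.37, 0.65 and 1.80 in the valves. Aorta replicate 2 stood above the other aortas and below all valves, and the difference was 4.41 ± 0.52 (adjusted p = 0.000836), or 5.04 without that array. The 2 other probe sets of Bmp5 differed by 0.57 and 0.79, and neither was called. Bmper, an extracellular modulator of BMP, was at -1.18, -0.83, -2.18 and -1.49 against 1.39, 1.02, 1.77 and 1.72 (difference 2.90 ± 0.46, adjusted p = 0.00620).

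Bmp2, the ligand that starts cushion formation, differed by 0.96 ± 0.21 (adjusted p = 0.0390), and the receptor Bmpr1a by -0.79 ± 0.18 (adjusted p = 0.0478), where 4 of its 5 other probe sets had the same sign. Both lost the call in turn, Bmp2 without each array but valve 1 (up to 0.141, valve replicate 4) and Bmpr1a without each but aorta 2 and valve 3 (up to 0.151, valve replicate 1). Bmpr1b, the alternative type I receptor, was at 1.12, 0.29, 0.70 and 0.75 against -2.52, -0.18, -0.56 and -1.01, a difference of -1.78 that was not called (adjusted p = 0.0934). Its 2 other probe sets had the same sign, and 1 was called lower. Bmp4 differed by -0.07 (95% interval -0.69 to 0.55).

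In the Wnt list 3 of 51 were called higher and 0 lower, beside 1.19% and 0.126% of all genes. Wnt9b, a ligand known from the endocardium of forming valves, was at -0.71, -0.45, -0.59 and -0.65 in the aortas and 1.70, 1.16, 0.90 and 1.30 in the valves, a difference of 1.87 ± 0.23 (adjusted p = 0.000924). Rspo3, which amplifies Wnt signals, was at -0.46, -1.41, -0.88 and -0.92 against 1.04, 0.82, 0.56 and 0.34 (difference 1.61 ± 0.29, adjusted p = 0.0125). Axin2, a common readout of Wnt activity, was at -1.21, -1.52, -0.51 and -0.65 against 1.30, 0.37, 0.06 and 0.79 (difference 1.6 ± 0.29, adjusted p = 0.0122). Each of the 3 had 1 other probe set, and none of those was called. Their differences were 0.04 for Wnt9b, 0.0055 for Rspo3 and 0.57 for Axin2.

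Wnt9b kept its call without any 1 array, whereas Axin2 lost it without valves 1 or 4 (up to 0.0521, valve replicate 4) and Rspo3 without valve replicate 1 (0.0559). The antagonist Frzb differed by 1.67 (adjusted p = 0.0685). Rnf43, a Wnt feedback ligase, differed by 0.83 (adjusted p = 0.0698), and by 1.02 (adjusted p = 0.0166) without aorta replicate 2.

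The 15 TGF-beta, 20 FGF and 16 Notch genes had 0 calls by limma in either direction, with medians of 0.19, 0.12 and 0.03 and 3, 2 and 3 genes at an unadjusted p below 0.05. Tgfb1 differed by 0.23 (95% interval -0.23 to 0.69), Tgfb2 by -0.31 (-0.91 to 0.29) and the receptor Tgfbr2 by 0.46 (0.07 to 0.85; adjusted p = 0.334). Fgf18, a ligand for chondrocytes, had separate arrays and a difference of 1.76 (adjusted p = 0.109). Notch1, whose loss is linked to valve disease in humans, differed by 0.53 (adjusted p = 0.385) and its target Hey1 by 0.60 (adjusted p = 0.315).

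Of 33 guidance genes 2 were called higher. Epha7, an ephrin receptor, was at -0.93, -2.11, -1.51 and -1.48 against 1.18, 0.36, 1.08 and 1.22 (difference 2.47 ± 0.25, adjusted p = 0.000286), and Unc5b, a netrin receptor of vessels, was at -0.96, -0.76, -0.72 and -0.46 against 0.89, 0.36, 0.57 and 0.56 (difference 1.32 ± 0.16, adjusted p = 0.000976). Calcrl, the receptor shared by adrenomedullin and the calcitonin gene-related peptide, was the gene called among 27 vasoactive ones (1.87 ± 0.32, adjusted p = 0.0108). Cxcr4, the receptor of the chemokine Cxcl12, was the one called among 25 chemokine genes, at -2.85, -1.86, -3.28 and -1.73 against 0.65, 0.44, 0.80 and 1.15 (difference 3.19 ± 0.38, adjusted p = 0.000868). All 4 kept the call without any 1 array. Ramp2, the partner of Calcrl, differed by 1.17 (adjusted p = 0.136), and Npr1, the receptor of atrial natriuretic peptide, by -0.92 with separate arrays (adjusted p = 0.0775).

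Markers of other cell types of the valve pieces leaned the same way in part. Of 34 endothelial and endocardial genes 29 had a positive difference and 4 were called higher (Hapln1 among them), beside 1.19% of all genes, with a median of 0.59. Plvap, a protein of fenestrated and endocardial endothelium, was at -0.43, -0.66, -0.59 and -0.51 in the aortas and 0.26, 0.20, 0.15 and 0.62 in the valves (difference 0.85 ± 0.15, adjusted p = 0.0114). Vcam1, an adhesion molecule, differed by 1.6 ± 0.32 (adjusted p = 0.0222) and Eng, endoglin, by 1.12 ± 0.25 (adjusted p = 0.0433). Pecam1, present in all endothelium, differed by -0.04 (95% interval -0.65 to 0.57).

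The list means over the endothelial genes overlapped between tissues, from -1.09 to 0.09 in the aortas and from -0.11 to 0.40 in the valves. Aorta replicate 3 was the lowest, with Emcn, endomucin, at -3.54 there and -0.53 to -0.10 in the other aortas. Eng lost its call without aortas 1 or 3 or valves 1, 2 or 3 (up to 0.152, valve replicate 1) and Vcam1 without aortas 1, 3 or 4 or valves 1 or 4 (up to 0.0922, valve replicate 1). Plvap kept it.

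Of 9 lymphatic endothelial genes 8 had a positive difference and 2 were called. Prox1, the master factor of lymphatic fate that is also found in valve endothelium and heart muscle, was at -2.03, -1.34, -1.79 and -1.57 in the aortas and 2.51, 1.91, 0.26 and 1.31 in the valves (difference 3.18 ± 0.47, adjusted p = 0.00356). Flt4, a VEGF receptor, was at -1.45, -1.89, -1.52 and -0.68 against 0.52, 0.28, 1.07 and 0.26 (difference 1.92 ± 0.28, adjusted p = 0.00328). Both kept the call without any 1 array. Lyve1, a marker of lymphatic vessels and resident macrophages, differed by 0.22 (95% interval -0.70 to 1.13).

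All 22 macrophage genes had a positive difference, with a median of 0.83, and 2 were called: H2-Ab1 (1.07 ± 0.24, adjusted p = 0.0445) and Cd74 (1.47 ± 0.33, adjusted p = 0.0462), both of antigen presentation. The list means were -0.71, -0.37, -0.69 and -0.51 in the aortas and 0.32, -0.09, 0.34 and 0.42 in the valves. No array overlapped, but 0 of the 22 were called without aorta replicate 2, and each of the 2 lost its call without each array but 1 (valve 2 for H2-Ab1, aorta 4 for Cd74; up to 0.156 and 0.152). T cell, B cell and neutrophil or mast cell lists had 0 calls by limma and medians of -0.16, -0.26 and 0.10, with 1, 0 and 1 genes at an unadjusted p below 0.05.

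All 13 melanocyte genes were positive as well, with a median of 0.83 and 2 calls. Dct, a pigment enzyme, was at -0.53, -0.63, -0.37 and -0.59 in the aortas and 2.52, 0.29, 3.14 and 1.09 in the valves. The aortas were alike and the valves spread widely, replicate 2 being the lowest (difference 2.29 ± 0.48, adjusted p = 0.0328). Mlana, a melanosome protein, differed by 2.05 ± 0.40 (adjusted p = 0.0216). Dct lost its call without each array but valve 2 (up to 0.128, valve replicate 1) and Mlana without aortas 1, 3 or 4 or valves 1 or 4 (up to 0.0803, valve replicate 4). Tyr, the key enzyme of melanin, differed by 0.78 (adjusted p = 0.195) and Pmel by 0.83 (adjusted p = 0.107).

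Among 16 Schwann cell and nerve genes, Tubb3, the neuronal tubulin, was at -0.85, -0.41, -0.66 and -0.52 against 2.14, 1.12, 1.22 and 1.47 (difference 2.10 ± 0.28, adjusted p = 0.00171), and Cdh19, a cadherin of Schwann cell precursors, differed by 1.90 ± 0.32 (adjusted p = 0.00982). Both kept the call without any 1 array, and Dbh, which makes noradrenaline, was not called (1.43, adjusted p = 0.0984). In the fibroblast list 4 of 19 were called higher (Tcf21, Lum, Tcf4 and Gsn) and Mfap5 lower. Tcf4 differed by 0.76 ± 0.16 (adjusted p = 0.0373) and Gsn, gelsolin, by 0.96 ± 0.21 (adjusted p = 0.0380); in each 1 of 5 other probe sets had the opposite sign, and both lost the call without aortas 1 or 2 or valves 1 or 4, Tcf4 also without aorta 4 and Gsn without aorta 3 (up to 0.135). Without aorta replicate 2, 1 of the 19 fibroblast genes was called higher. Of 16 mesothelial and epicardial genes Tcf21 alone was called; Wt1 had separate arrays at 1.14 (adjusted p = 0.248). The 14 airway, thyroid and parathyroid genes had 0 calls by limma (1 at an unadjusted p below 0.05) and a median of -0.16.

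**Figure D4:**
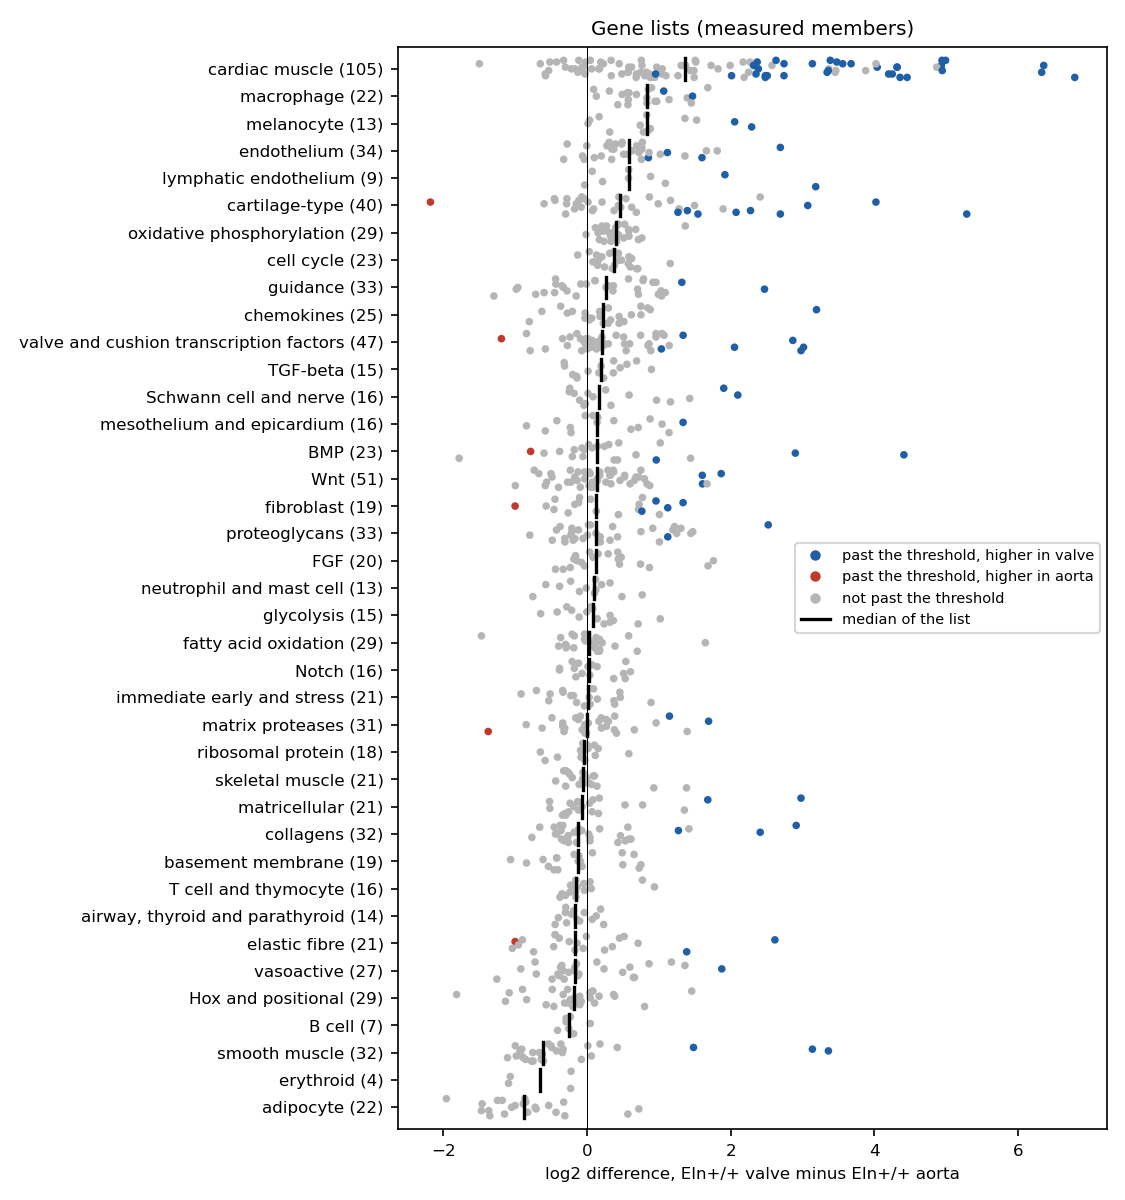
Each row is a gene list with its number of measured members, each point is the log2 difference of a member (Eln+/+ valve minus aorta), and the black line is the median of the list. The cardiac list has the highest median (1.36) and the adipocyte list the lowest (-0.88).

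Genes of smooth muscle mostly had lower values in the valve pieces, with 0 called lower by limma (7 lower at an unadjusted p below 0.05). Of 32 measured, 25 had a negative difference, with a median of -0.61, and 6 had all valves below all aortas, as had 4.26% of all genes. Myh11, the smooth muscle myosin heavy chain, was at 0.95, 0.62, 0.64 and 0.40 in the aortas and -0.27, 0.15, -0.16 and -0.75 in the valves. The groups were separate, yet the difference of -0.91 ± 0.31 was not called (adjusted p = 0.239). Acta2, smooth muscle actin, was at 1.16, 0.33, 0.70 and 0.14 against -0.36, 0.86, -0.16 and -1.11, with valve replicate 2 above 3 of the aortas (difference -0.77, adjusted p = 0.597).

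Susd5, Smtn, which encodes smoothelin, and Rgs4, a regulator of G protein signals, differed by -1.11, -0.93 and -0.91 (adjusted p = 0.244, 0.288 and 0.194). The 3 members of the smooth muscle list that were called were higher in the valve, namely Casq2, Pln and Des, and Casq2 and Pln are on the cardiac list too. Des, desmin, is the intermediate filament of all muscle. It differed by 1.48 ± 0.33 (adjusted p = 0.0462), its other probe set had the opposite sign, and its call was lost without each array but aorta 2 (up to 0.151, aorta replicate 3).

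The 23 genes called lower in the valve were outside these lists but for Mia, Mfap5, Mmp17, Osr2 and Bmpr1a. Tes, testin, a focal adhesion protein, was at 0.21, 0.77, 0.38 and 0.99 in the aortas and -1.24, -0.24, -0.69 and -0.98 in the valves (difference -1.38 ± 0.22, adjusted p = 0.00647). It and the predicted gene Gm15050 (-1.40, adjusted p = 0.0108) kept the call without any 1 array, as did Prkdc, a DNA repair kinase chosen after its values were seen (-0.80, adjusted p = 0.00820). Arid5b, an AT-rich DNA-binding factor, was at 0.93, 1.47, 0.91 and 1.57 against -0.62, -0.06, 0.64 and -0.65 (difference -1.39 ± 0.28, adjusted p = 0.0232).

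Galnt2, which starts O-glycans, differed by -1.16 (adjusted p = 0.0131), Bpnt1, a phosphatase of sulphur metabolism, by -1.28 (0.0176), Slc22a2, an organic cation transporter, by -1.35 (0.0233), Glcci1, a glucocorticoid-induced transcript, by -1.34 (0.0297; 1 of its 2 other probe sets had the opposite sign) and Napepld, which makes N-acylethanolamines, by -1.40 (0.0469). The uncharacterised 4930579P08Rik, Gm4876 and AI507597 differed by -1.67, -1.61 and -1.61 (0.0113, 0.0122 and 0.0166). The calls of these and of Arid5b were lost without some array: valve 1 for 4930579P08Rik, valve 4 for Gm4876, valves 1 or 4 for Galnt2, aorta 3 or valves 1 or 4 for AI507597, aortas 2 or 4 or valves 1 or 4 for Arid5b and Bpnt1, aortas 2 or 3 or valves 1 or 3 for Slc22a2, aortas 1, 2 or 3 or valves 3 or 4 for Glcci1, and each of the 8 for Napepld, with adjusted p-values up to 0.163.

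Positional genes leaned to the aorta with 0 calls by limma among 29 (8 at an unadjusted p below 0.05, 7 of them lower in the valve): Hoxa4 had separate arrays at -1.14 (adjusted p = 0.0719), Hoxa5 differed by -0.90 (0.124) and Hoxb2 by -0.57 (0.159). Pbx3, a cofactor of Hox proteins, leaned to the valve at 1.46 (adjusted p = 0.0982). The adipocyte genes were lower in the valve in 20 of 22 with a median of -0.88 and 0 calls by limma (3 at an unadjusted p below 0.05). Ucp1, the uncoupling protein of brown fat, was at 3.20, -0.88, -0.02 and 5.0 in the aortas and -1.17, 0.02, 2.48 and -1.85 in the valves. It was high in aorta replicates 1 and 4 and in valve replicate 3, so the groups overlapped (difference -1.96, 95% interval -4.40 to 0.49). The part of the adipocyte genes in other results was not tested.

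Energy and growth genes had 0 calls by limma; at an unadjusted p below 0.05 there were 5 oxidative phosphorylation, 3 cell cycle, 3 fatty acid oxidation, 3 glycolysis, 2 stress and 2 ribosomal protein genes. Of 29 oxidative phosphorylation genes 28 had a positive difference, with a median of 0.40; Atp5g1, an ATP synthase subunit, differed by 1.37 (adjusted p = 0.0561), and by 1.68 (adjusted p = 0.00823) without aorta replicate 2, with its other probe set of opposite sign. Of 23 cell cycle genes 22 were positive with a median of 0.38, Bub1, a mitotic checkpoint kinase, differing by 1.16 (adjusted p = 0.0759; its other probe set had the opposite sign). Medians were 0.03 for 29 fatty acid oxidation genes, 0.08 for 15 glycolysis genes, 0.02 for 21 immediate early and stress genes and -0.04 for 18 ribosomal protein genes. Ppargc1a, a regulator of mitochondria, differed by 1.65 (adjusted p = 0.106) and Pfkm, the muscle phosphofructokinase, by 1.02 (adjusted p = 0.0641).

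Of the 217 genes called higher 134 were on none of these lists; those named next were chosen after their values were seen. Fam167a had the smallest adjusted p among the genes described, 2.51e-05: it was at -1.10, -1.23, -1.41 and -1.42 in the aortas and 1.34, 1.45, 1.66 and 1.73 in the valves. Both groups were tight, and the difference was 2.84 ± 0.21. Ecrg4, a secreted peptide precursor, was at -2.62, -1.87, -2.68 and -2.79 against 1.71, 0.62, 0.38 and 1.64 (3.58 ± 0.41, adjusted p = 0.000731), Slc47a1, a drug and cation exporter, at -3.23, -2.01, -1.65 and -1.87 against 1.75, 0.47, 0.93 and 2.19 (3.52 ± 0.42, adjusted p = 0.000859), and Ptn, the growth factor pleiotrophin, differed by 2.65 ± 0.39 (adjusted p = 0.00356), with 1 of 2 other probe sets of opposite sign.

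Klhdc8a differed by 3.71 ± 0.44 (adjusted p = 0.000836), with its other probe set of opposite sign. Osmr, the oncostatin M receptor, was at -1.73, -1.19, -0.83 and -0.64 against 1.36, 1.51, 0.94 and 0.46 (2.16 ± 0.32, adjusted p = 0.00365). The imprinted growth factor Igf2 was at -0.59, -0.54, -1.23 and -0.55 against 0.66, 0.62, 0.91 and 0.72 (1.46 ± 0.28, adjusted p = 0.0181). Npy, a neuropeptide of sympathetic nerves, differed by 1.64 ± 0.29 (adjusted p = 0.0122), Pirt, a sensory channel regulator, by 3.03 ± 0.56 (0.0138), and Cldn11, a tight junction protein, by 2.65 ± 0.48 (0.0130).

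Other unlisted genes shared the aorta replicate 2 value: Trim63, a ubiquitin ligase of the sarcomere (3.47 ± 0.57, adjusted p = 0.00856), Mylk3, the cardiac myosin light chain kinase (3.25 ± 0.58, 0.0122), Hjv, hemojuvelin, a regulator of hepcidin (3.86 ± 0.82, 0.0349), and Gja3, a gap junction protein (3.49 ± 0.73, 0.0306). In aorta replicate 2 these read -1.40, -0.64, -0.42 and -0.09, above the other 3 aortas in each case. Without some array the call was lost for Mylk3, Pirt and Cldn11 (valves 1 or 4, up to 0.0617), Npy (valve 1, 0.0551), Igf2 (aorta 3 or valves 1, 3 or 4, up to 0.0694) and Gja3 and Hjv (each array but aorta 2 and valve 2, up to 0.123). It held for Fam167a, Ecrg4, Slc47a1, Ptn, Klhdc8a, Osmr and Trim63.

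The tissue difference was then read in the 8 arrays of Eln+/- mice, which share no specimen with the Eln+/+ arrays but share the fitted variance. There 802 genes (4.41%) were called higher and 483 (2.65%) lower in the valve. Of the 240 genes called in Eln+/+ tissue 236 had the same sign. Of the 217 higher genes 174 were called higher again (80.2%, and 21.7% of the 802), and of the 23 lower genes 14 were called lower again (60.9%, and 2.90% of the 483). The median difference of the 217 was 2.04 in Eln+/+ and 2.21 in Eln+/-, and that of the 23 was -1.28 and -0.99.

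Some leading genes had similar values in both genotypes and others did not. Nppa differed by 6.79 in Eln+/+ and 6.68 in Eln+/-, Comp by 4.02 and 3.83, Tbx20 by 2.98 and 3.29, Bmp5 by 4.41 and 4.27, and Mia by -2.18 and -2.25. The cardiac list had 75 of 105 members called higher in Eln+/-, with a median of 2.53. Prg4 differed by 5.28 and 3.36 and Gja3 by 3.49 and 5.42, and neither difference between genotypes passed in limma (adjusted p of the interaction 0.668 and 0.674). In Eln+/- tissue Prg4 was at -4.10, -0.03, -1.75 and -2.97 in aortas 1 to 4 and 2.32, 1.05, 0.03 and 1.19 in valves 1 to 4. Among the highest rises, several genes of the cardiac list had differences at least 1 higher in Eln+/- than in Eln+/+. Kcnj3 differed by 4.99 and 6.24, Ttn by 4.93 and 6.03, Myh6 by 4.45 and 5.51, Trdn by 4.36 and 5.70, Lmod2 by 4.31 and 5.65 and Smpx by 4.2 and 5.91, and Hamp by 4.94 and 5.99. None of these passed the interaction test in limma (adjusted p of the interaction between 0.733 for Smpx and 0.866 for Myh6). Among the Eln+/- aortas, replicate 3 had the highest value in each of these genes. It stood at -0.73 in Myh6 (the other Eln+/- aortas -5.94 to -4.65), -1.05 in Ttn (-6.05 to -4.16) and -0.60 in Trdn (-4.03 to -3.78). The part of that array in the Eln+/- differences and in the shared variance was not tested.

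No probe set passed the test of the difference between genotypes (limma interaction, 0 at adjusted p below 0.05, 3477 at unadjusted p below 0.05, lowest adjusted p 0.338). Osmr, called in Eln+/+ at 2.16, stood at 0.26 in Eln+/- (interaction 1.91 ± 0.45, adjusted p = 0.619). Axin2 stood at 1.6 and 0.30, Calcrl at 1.87 and 0.53, and Cxcr4 at 3.19 and 1.48, each with an adjusted interaction p of 0.619. The 4 called genes with opposite signs were Osr2 (-1.19 and 0.06), Asap1 (0.60 and -0.15), Txndc16 (0.83 and -0.05) and Hnrnpab (-0.77 and 0.18), again with adjusted interaction p-values of 0.619. Of these the calls in Eln+/+ were lost without 5 or more of the 8 arrays in turn (adjusted p up to 0.144, Osr2 without valve replicate 1). Eln differed by -0.74 in Eln+/+ and by -1.60 in Eln+/- (interaction 0.85 ± 0.48, adjusted p = 0.687). A p that misses the threshold does not show that the genotypes are alike.

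**Figure D5:**
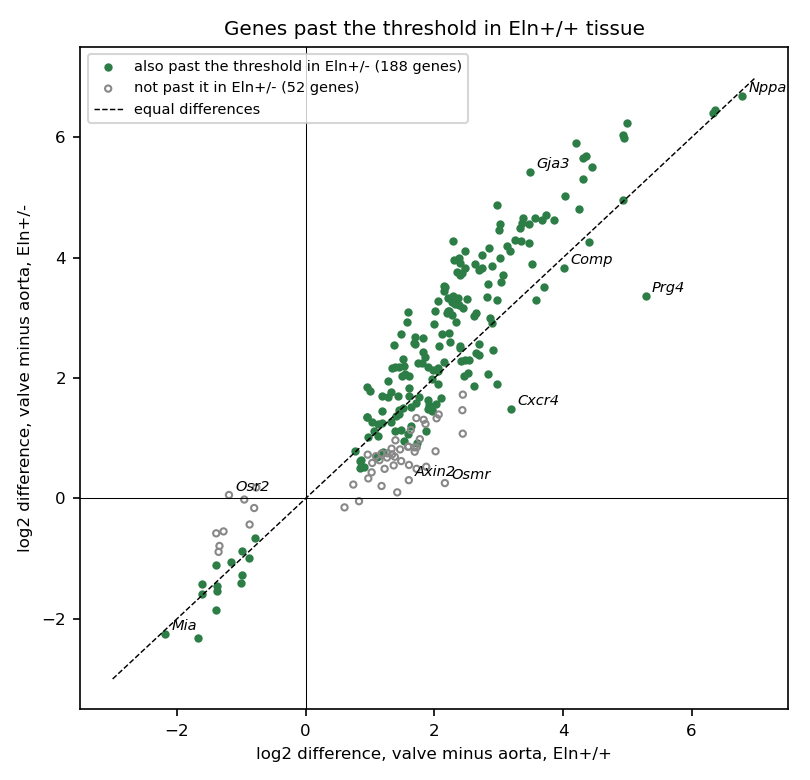
Each point is 1 of the 240 genes called in Eln+/+ tissue; the axes are the log2 difference of valve minus aorta in Eln+/+ (horizontal) and Eln+/- (vertical), and the dashed line marks equal differences. The 188 filled points were called in Eln+/- as well, and 52 open points were not, Osr2, Osmr and Axin2 among them.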

How the data were processed

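RNA of 16 single tissue specimens was measured on Affymetrix mouse genome arrays, and 8 arrays of Eln+/+ mice are compared here. Per the labels, the RNA was amplified before hybridisation, and the submitters' processing notes name RMA. The deposited value is a linear ratio. That the authors divided each probe set by its median over the 16 arrays is read from the values and is not given in the sources used here: 39827 of 45101 probe sets have a median ratio of 1, 5274 a lower one and 0 a higher one. The lowest deposited ratio, 0.01, is held by 14 values. Log2 of the deposited ratio was taken, 64 control probe sets were left out, and 45037 were tested with limma 3.58.1 (R 4.3.3; lmFit and eBayes, 4 group means over 16 arrays, 12 residual degrees of freedom) with Benjamini-Hochberg adjustment and a threshold of 0.05. The fit was tested on simulated data. Precision is limited by 4 arrays a group, and the ratios carry no depth or signal over background.

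Genes were named through the platform annotation: 34945 probe sets had 1 gene, 932 several and 9160 none, and 34741 matched RefSeq by Entrez ID. Of 1047 listed names in 40 lists, 962 were measured. Lists and members were chosen with earlier results of these data known. Named genes are the 15 highest rises and 15 deepest falls among called genes with separate arrays, the called members of each list with up to 3 others of lowest p, and textbook genes. Alternatives covered the samples in the fit, a replicate block, array weights, centring, quantile normalization, a filter on dim probe sets, the choice of probe set, a sex signal covariate, a minimum difference and each array left out. Promoters came from RefSeq (GRCm38.p6). Python 3.11.15 with pandas 2.3.3, numpy 2.4.6 and scipy 1.17.1 was used for summaries.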

Additional observations from a re-analysis of the deposited data

Results flagged for a closer look

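Of 472 sets of 4 Eln+/+ arrays of 1 tissue examined, 36 had 1 array far from the other 3 (gap over range above the 95% critical value of Dixon), and chance gives about 1 in 20. Of the 36, 24 were in aorta, 15 of them aorta replicate 2, and 12 in valve. Log2 values of the array are given below with the range of the other 3 in brackets.

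Aorta replicate 2 stood above the other aortas in heart muscle genes and Bmp5: Kcnj3 -1.06 (-3.03 to -2.73), Myl2 -0.083 (-3.21 to -2.84), Myl3 -0.14 (-4.27 to -3.87), Mybpc3 -0.31 (-3.44 to -3.05), Smpx -0.56 (-4.25 to -3.72), Nebl -1.25 (-2.68 to -2.44), Actc1 -0.37 (-3.79 to -3.72), Csrp3 -0.51 (-3.66 to -3.13), Casq2 -0.68 (-2.67 to -2.63), Pgam2 -0.85 (-2.96 to -2.83), Ckmt2 -0.45 (-4.76 to -4.44), Mb -0.29 (-4.02 to -3.68) and Bmp5 -0.99 (-3.78 to -3.35). The same array stood above the others in the cardiac muscle list mean -0.53 (-1.55 to -1.47) and the erythroid list mean 1.65 (0.14 to 0.28). Without that array the differences of called genes among these were 5.45 (Kcnj3, adjusted p = 0.00187), 4.07 (Mybpc3, 0.00131), 5.04 (Smpx, 0.00509), 3.70 (Nebl, 0.00148), 4.30 (Csrp3, 0.0017), 3.63 (Casq2, 0.000488), 3.99 (Pgam2, 0.00104) and 5.04 (Bmp5, 6.26e-05), by limma.

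Aorta replicate 1 stood apart in Tbx18 -0.11 (0.51 to 0.56) and Col11a1 0.40 (-0.95 to -0.82). Aorta replicate 3 was the lowest in Lox 0.13 (0.49 to 0.57), Ltbp1 0.10 (0.44 to 0.49), Emcn -3.54 (-0.53 to -0.097), Ptn -2.74 (-1.14 to -0.82) and Igf2 -1.23 (-0.59 to -0.54). Aorta replicate 4 stood apart in Hoxa3 1.00 (0.0032 to 0.075) and the skeletal muscle list mean -0.27 (-0.098 to -0.067).

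Valve replicate 1 was high in Gpr22 0.67 (0.04 to 0.12). Valve replicate 2 was low in Dcn -0.079 (0.93 to 1.06), Epha7 0.36 (1.08 to 1.22) and the cell cycle list mean -0.21 (0.17 to 0.24). Valve replicate 3 was high in the elastic fibre list mean 0.23 (-0.12 to -0.074) and the erythroid list mean 0.38 (-0.29 to -0.20). Valve replicate 4 stood apart in Cox6a2 1.24 (0.18 to 0.25), Postn -0.51 (0.0066 to 0.083), Calcrl 1.32 (0.29 to 0.35), Mlana 2.41 (1.10 to 1.21), Gm15050 -0.65 (-0.55 to -0.54) and Klhdc8a 1.75 (0.26 to 0.46).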

How the results depend on the processing

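Against 382 probe sets called higher in the Eln+/+ valve and 44 lower, quantile normalization gave 605 and 87, array weights gave 86 lower, and a test against a minimum log2 difference of 0.5 (treat) gave 78 and 0. Leaving out 1 array gave 157 to 391 higher and 16 to 63 lower, the fewest without valve replicate 1. The cause was not tested. The replicate block gave 272 higher and 25 lower. Same-numbered valves and aortas had correlations of deviations of 0.052, -0.034, -0.026 and -0.0019. These cannot tell whether specimens came from the same mouse, since a deviation also holds what is particular to a piece of tissue. Of 117 called genes described, 37 kept the call under every alternative and 47 under every one but treat; 79 lost it under treat, 40 under the block, 27 with only the 8 arrays, 17 with a sex signal covariate and 12 with the mean of all probe sets. None of the 117 reversed. Of 80 not called, 5 did: Msx1 (-0.13 without x_at or s_at probe sets), and, with 1 array left out, Acan (-0.20 to 0.023), Bmp4 (-0.16 to 0.059), Pecam1 (-0.16 to 0.086) and Lyve1 (-0.0067 to 0.33). Of 640 list medians recomputed, 32 moved. Leaving out arrays for the lists was chosen after seeing the data.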
